A study of Mus musculus with 3 samples.

Results

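The detoxification and glutathione enzymes described here are 105 genes of 31896 on the arrays. They were chosen by name: the glutamate-cysteine ligase subunits, the glutathione S-transferases, the glutathione peroxidases, the thioredoxin reductases, the quinone oxidoreductases, the UDP-glucuronosyltransferases, the sulfotransferases, the carboxylesterases, the epoxide hydrolases, the aldo-keto reductases, and the aldehyde dehydrogenases without the Aldh1a genes. They are covered by 137 probes. Of the 105 genes, 84 had a signal well above background, by the scanner's own flag, on all 3 arrays in at least 1 colour and were measured, and 75 of these were well above background in both colours on all arrays. The 21 others missed this rule and have no value, among them 5 UDP-glucuronosyltransferases, 5 sulfotransferases, 5 aldo-keto reductases, 3 carboxylesterases, Gpx5, Gpx6 and Gstt4.

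RNA was compared between 3 primary diffuse-type gastric cancers, of the genotype Atp4b-Cre+;Cdh1loxP/loxP;Trp53loxP/loxP, and a pool of 5 normal gastric mucosae, of the genotype Atp4b-Cre-;Cdh1loxP/loxP;Trp53loxP/loxP. All of the mice were 12 months old. Both groups carry loxP-flanked Cdh1, which encodes E-cadherin, and Trp53, which encodes the tumour suppressor p53. The Cre recombinase that deletes them is driven by the promoter of Atp4b, a gene of the acid-secreting parietal cells of the stomach. The stroma of the normal mucosae had been stripped off mechanically in 30 mM EDTA-2Na, a step the labels do not give for the tumours. Each of the 3 arrays held 1 tumour in red and the same pool in green, with no array of the opposite dyes, so an effect of dye and an effect of tumour cannot be told apart. The pool is a single control sample, and the spread between normal mice is therefore in no test. Each value given is the log2 of the tumour's signal over that of the pool, so that a negative value is a lower level in the tumour. A gene was called higher or lower when its mean over the tumours differed from 0 in limma at an adjusted p under 0.05 and by at least 2-fold.

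Detoxification runs in stages. Reductases, dehydrogenases and hydrolases expose or convert a reactive group on a drug, dietary compound or by-product of metabolism, and transferases then attach glutathione, glucuronic acid or sulfate so that the product can be exported. Glutathione also feeds the peroxidases that remove hydrogen peroxide and lipid peroxides, and it is made in the cell from its amino acids by glutamate-cysteine ligase and glutathione synthetase. Many genes of these families are induced by Nfe2l2 (Nrf2) through the antioxidant response element or by the aryl hydrocarbon receptor through the xenobiotic response element. The stomach lining, which meets food and its contaminants early, is known to express members of most of these families.

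More of the measured enzymes were called lower in the tumours than higher. Of the 84, 41 were called lower and 4 higher, and 39 were not called, against backgrounds of 9.68% of all 19434 tested genes called lower and 9.33% called higher. The members called lower made up 48.8% of those measured and the members called higher 4.76%. The median log2 ratio of the measured members was -1.11, beside 0.05 over all genes tested, and it was -1.26, -1.17 and -0.79 in tumours 1, 2 and 3. The largest differences were those of Gsta2, Aldh6a1, Gsta1, Nqo1 and Sult1b1, which ranged from 16.7-fold to 31.7-fold lower, and the 4 genes called higher were Aldh3b1, Gpx2, Gpx8 and Mgst1. In bulk tissue, fewer cells of a type and less RNA per cell cannot be told apart.

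**Figure D1:**
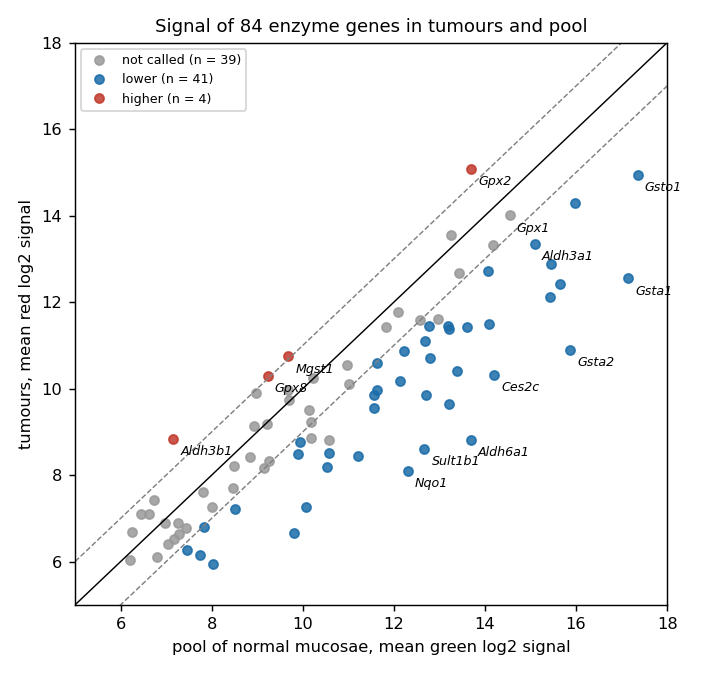
Mean log2 signal of the 84 measured enzyme genes in the 3 tumours (red channel, vertical axis) against the pool of normal mucosae (green channel, horizontal axis), after background correction and loess. Each point is a gene, the solid line marks equal signal, and the dashed lines mark 2-fold differences. The 41 genes called lower (blue) lie below the lower dashed line, and the 4 called higher (red) lie above the upper one.

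The size of these differences depended on how the arrays were scaled. The reported values were normalised by loess, which sets the ratio to about 0 at every brightness. Before loess, the median ratio rose with brightness, from 0.57 in the dimmest of 4 equal groups of genes through 1.34 and 1.69 to 1.85 in the brightest, and 40 of the 84 members lay in that brightest group. When each array was instead shifted by a single constant, its median, the median of all genes moved by 0.72 to 0.77, 93.3% of all calls were of genes higher in the tumours, and 2.86% of all genes tested were called lower. Under that setting the members' median was -0.14, 16 of the members called lower kept the call and none was called the opposite way. The 16 were Gsta1, Gsta2, Gstm6, Gstk1, Gstt1, Mgst3, Nqo1, Ugt2b35, Sult1b1, Sult1c2, Ces2c, Ephx2, Akr1c14, Aldh6a1, Aldh1l1 and Aldh1l2. The 4 members called higher kept their calls too, in a setting where 39.9% of all genes tested were called higher. The share of members called lower was then 19.05%. The members' median lay 1.16 below that of all genes with loess and 0.91 below it with the constant shift. With 320 spike-in control spots as the reference, 34 of the 41 kept the call. Members whose direction turned under one of these scalings are named where their values are given. With the constant shift the median of all genes was 0.77, so a member above 0 there can still lie below that median.

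**Figure D2:**
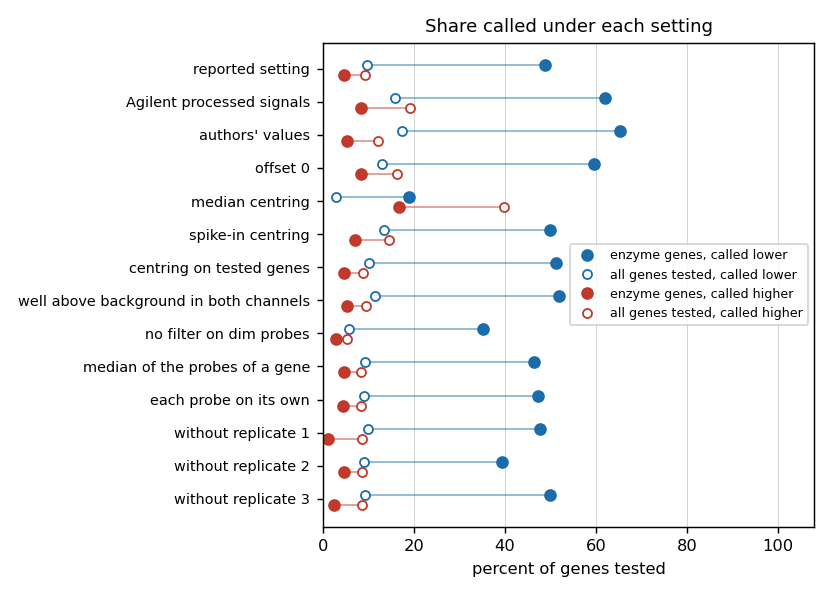
Percent of the enzyme genes (filled points) and of all genes tested (open points) called lower (blue) or higher (red) in the tumours under the reported setting and each alternative. The filled blue point lies to the right of the open blue point in every setting shown, from 19.05% against 2.86% with median centring to 65.3% against 17.4% with the authors' deposited values.

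Glutamate-cysteine ligase, which makes the first bond of glutathione, has a catalytic subunit, Gclc, and a modifier subunit, Gclm. Gclc had ratios of -1.80, -0.73 and -0.60 in tumours 1, 2 and 3. Its mean was -1.04 ± 0.66 (SD, n = 3; adjusted p = 0.0354), and with the constant shift it was 0.20, below the median of all genes there, and not called. Tumour 1 was well below the others, and the call was lost when any of the 3 tumours was left out, with means from -1.26 to -0.66, and also with spike-in scaling (-0.63) and when dim probes were kept. Gclm had ratios of -0.63, -0.72 and -0.84 and a mean of -0.73 ± 0.11, under the 2-fold limit although its adjusted p was 0.0059, and 0.025 with the constant shift. The tumours lay close together for Gclm and apart for Gclc.

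Of the glutathione S-transferases of all classes, 23 of 24 genes were measured, and 18 were called lower and 1 higher. These enzymes join glutathione to electrophiles such as epoxides and the aldehydes of lipid peroxidation. Their median log2 ratio was -1.68.

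The alpha class held the largest differences among them. Gsta2 (probe at chr9:78178856-78178915, mm9) had ratios of -5.41, -3.51 and -6.05, a mean of -4.99 ± 1.32, which is 31.7-fold lower (adjusted p = 0.00343). Gsta1 (chr9:78090411-78090470) had ratios of -5.10, -3.26 and -5.41, a mean of -4.59 ± 1.16 or 24.1-fold lower (adjusted p = 0.00308). In both genes tumour 2 was the nearest to the pool and tumours 1 and 3 lay together below it. Their probes match at 46 of 60 bases at the best alignment, so that some signal could be shared and the 2 genes are not fully separate measurements. Gsta4, which acts on the lipid peroxidation product 4-hydroxynonenal, had ratios of -2.39, -1.69 and -1.13 and was 3.33-fold lower (adjusted p = 0.00824). Gsta3 had ratios of -3.20, -0.54 and -0.39, with a mean of -1.38 ± 1.58 that was not called (adjusted p = 0.132) and that was 0.020 with the constant shift. Only tumour 1 stood far from the pool for Gsta3.

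All 7 mu-class genes were called lower, with a median of -1.59. They are copies in a cluster on chromosome 3 with similar sequences, and the probe of Gstm1 is placed on chromosome 5 by the array's annotation, so the individual values are uncertain. Gstm6 (chr3:107741766-107741825) had ratios of -3.64, -3.40 and -1.37, with a mean of -2.80 ± 1.25 (6.97-fold; adjusted p = 0.0128). Gstm2 (chr3:107784622-107784681) had ratios of -2.24, -2.73 and -1.57, with a mean of -2.18 ± 0.58 (4.54-fold; adjusted p = 0.00395). Tumour 3 was the nearest to the pool in both. Gstm5 had ratios of -1.60, -2.19 and -1.18 (3.16-fold lower), Gstm1 of -2.12, -2.18 and -0.45 (3.0-fold), and Gstm3 of -1.76, -1.84 and -0.60 (2.64-fold). Gstm4 had ratios of -1.55, -1.64 and -0.67, and Gstm7 of -1.27, -1.51 and -0.75. Tumour 3 was the highest of the tumours in all 7 genes, while tumour 2 was the lowest in 6 of them. The calls of Gstm1 and Gstm3 were lost without tumour 1 (means -1.32 and -1.22) or without tumour 2 (-1.29 and -1.18), and those of Gstm6 (-2.50) and Gstm4 (-1.11) without tumour 2. The call of Gstm1 was also lost when dim probes were kept. With the constant shift only Gstm6 among the 7 kept its call. The median of a gene's probes gave -0.59 for Gstm4 and -0.97 for Gstm7, neither called. The second probe read 0.11 for Gstm4 and -0.76 for Gstm7. The other probes of Gstm6 reached -1.05.

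Of 10 genes of the other cytosolic and mitochondrial classes, 9 were measured and 6 called lower, with a median of -1.68 that became 0.035 with the constant shift. Gstk1, the kappa-class enzyme of mitochondria and peroxisomes (chr6:42200381-42200440), had ratios of -2.84, -3.50 and -2.61, with a mean of -2.98 ± 0.46 (7.92-fold; adjusted p = 0.00124). Gstt1, a theta-class enzyme (chr10:75246560-75246619), had ratios of -2.85, -3.24 and -2.45, with a mean of -2.85 ± 0.40 (7.20-fold; adjusted p = 0.00109). These were the members of the classes whose calls held with the constant shift, at -1.64 and -1.59. Gsto1, an omega-class thiol transferase, ran the other way between tumours, with ratios of -1.54, -2.33 and -3.36 (5.32-fold lower; adjusted p = 0.00863). Gstt3 had ratios of -2.30, -2.33 and -1.25 (3.88-fold lower), and tumour 3 was the nearest to the pool in all 3 theta-class genes measured.

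The tumours lay close together for the pi-class pair. Gstp2 had ratios of -1.73, -1.81 and -1.51 (3.22-fold lower; adjusted p = 0.00109) and Gstp1 of -1.25, -1.41 and -1.35 (2.52-fold lower; adjusted p = 0.00131), but with the constant shift they were 0.14 and 0.035, and with spike-in scaling -0.70 and -0.80, without a call in either setting. They are near-identical neighbouring genes on chromosome 19, whose signals probes may not separate. Gstt2 (mean -0.98), Gstz1, the maleylacetoacetate isomerase of tyrosine breakdown (-0.94), and Gsto2 (-0.79) were below the 2-fold limit, and all 3 lay above 0 with the constant shift (0.038, 0.19 and 0.097).

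The microsomal transferases, membrane proteins unrelated in sequence to the soluble classes, split in direction. Mgst3 (chr1:169303928-169303987) had ratios of -3.25, -2.97 and -3.48, with a mean of -3.23 ± 0.26 (9.41-fold lower; adjusted p = 0.000558), and its second probe gave -3.19. Mgst2 had ratios of -2.90, -2.53 and -2.27 (5.92-fold lower; adjusted p = 0.001). Mgst1 (chr6:138104846-138104905) had ratios of 1.29, 0.56 and 1.34, with a mean of 1.06 ± 0.44 (2.09-fold higher; adjusted p = 0.0135), and its second probe gave 1.09. Tumour 2 was the lowest for Mgst1 and still above the pool. Its call was lost without tumour 1 (0.95) or without tumour 3 (0.92). Mgst1 was the only glutathione S-transferase called higher.

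**Figure D3:**
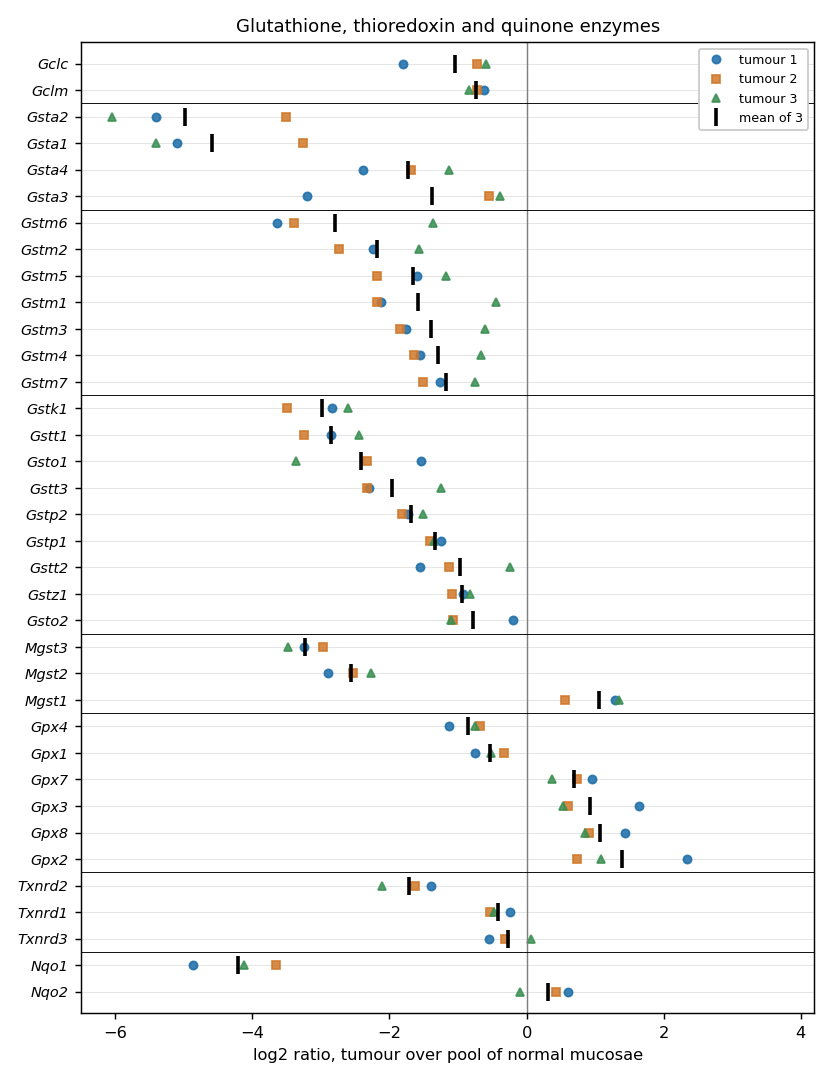
Log2 ratios of tumour over pool for each measured gene of the glutathione ligase, glutathione S-transferase, glutathione peroxidase, thioredoxin reductase and quinone oxidoreductase families. Coloured points are the 3 tumours, the black bar is their mean, and horizontal lines part the families. The Gstm genes lie left of 0 with tumour 3 rightmost, while 4 of 6 peroxidases and Mgst1 lie right of 0, and Gclc, Gclm, Gsta3, Gstp1, Gstp2, Gstt2, Gstz1, Gsto2, Gpx1, Gpx4, Txnrd1 and Txnrd3 crossed to the right of 0 with median centring (Gpx1 and Txnrd1 also with spike-in centring). The median of all genes was 0.77 with median centring.

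The promoters of 91 of the 105 genes were found in RefSeq (GRCm38.p6). Each window held 250 bases before and 50 bases after an annotated start site, and some genes have several windows. They were searched on both strands for the core letters of the antioxidant response element, TGACNNNGC. A gene was counted when any of its windows held the letters. That was so for 8 of the 91 genes (8.79%), among them 3 of the 36 called lower and 1 of the 4 called higher. The share was 14.0% of all 27025 genes with a promoter window and 16.6% of the 11705 of them that were tested. These 4 promoters are shown because they hold the letters and belong to genes that differ in their response: Gclm, not called; Gstm5 and Gstm7, called lower; and Mgst1, called higher. Capitals mark the matching letters, on the strand shown or as their reverse complement. The windows are chr3:122245307-122245606 on the plus strand for Gclm, chr3:107895604-107895903 on the plus strand for Gstm5, chr3:107931565-107931864 on the minus strand for Gstm7 and chr6:138140277-138140576 on the plus strand for Mgst1.
Gclm: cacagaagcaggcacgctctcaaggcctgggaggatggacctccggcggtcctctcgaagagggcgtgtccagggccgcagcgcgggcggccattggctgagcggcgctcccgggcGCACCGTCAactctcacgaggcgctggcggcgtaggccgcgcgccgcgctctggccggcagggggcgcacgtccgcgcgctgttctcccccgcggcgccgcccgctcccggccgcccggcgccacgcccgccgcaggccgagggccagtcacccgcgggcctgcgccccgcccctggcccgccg
Gstm5: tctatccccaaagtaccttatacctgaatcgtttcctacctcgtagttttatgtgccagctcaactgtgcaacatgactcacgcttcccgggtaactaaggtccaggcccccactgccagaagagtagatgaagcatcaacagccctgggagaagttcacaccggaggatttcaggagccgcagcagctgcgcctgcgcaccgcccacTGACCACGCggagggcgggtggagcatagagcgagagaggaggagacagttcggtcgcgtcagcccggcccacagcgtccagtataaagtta
Gstm7: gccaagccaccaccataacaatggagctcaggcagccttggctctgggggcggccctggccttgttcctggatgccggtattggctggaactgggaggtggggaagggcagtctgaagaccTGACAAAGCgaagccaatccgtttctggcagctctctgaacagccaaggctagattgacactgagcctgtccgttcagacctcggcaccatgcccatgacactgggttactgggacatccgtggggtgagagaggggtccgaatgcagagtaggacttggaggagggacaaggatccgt
Mgst1: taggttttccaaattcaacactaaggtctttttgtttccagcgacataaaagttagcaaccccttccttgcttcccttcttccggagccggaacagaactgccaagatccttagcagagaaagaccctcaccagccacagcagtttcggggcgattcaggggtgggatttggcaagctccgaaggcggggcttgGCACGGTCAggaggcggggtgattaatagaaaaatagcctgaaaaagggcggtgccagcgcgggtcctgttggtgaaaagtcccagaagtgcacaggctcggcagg
The match began 134 bases before the start site in Gclm, 42 in Gstm5, 129 in Gstm7 and 56 in Mgst1, and it read on the opposite strand in Gclm and Mgst1. Gstm7 and Mgst1 each have 2 promoter windows in RefSeq, and the distance is to the start site of the window shown, which may lie inside the gene. The other 4 promoters with the letters were those of Akr1c19, called lower, and of Aldh9a1, Gsta3 and Txnrd1, not called. The core of the xenobiotic response element, TNGCGTG, was found for 5 of the 91 genes (5.49%). The share was 5.84% of all genes with a promoter window and 8.85% of those tested. Of those 5 genes, 2 were called lower, Gsta2 and Aldh3a2. Aldh9a1 held both motifs, at separate places in the window. A match of these letters is a description of the window only.

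The glutathione peroxidases, a family named for reducing peroxides with glutathione, had no gene called lower. Of 8 genes 6 were measured, and 2 were called higher, and the median was 0.81. Gpx2, the peroxidase of the gastrointestinal epithelium (chr12:77893402-77893461), had ratios of 2.34, 0.74 and 1.09, with a mean of 1.39 ± 0.84 (2.62-fold higher; adjusted p = 0.0298). Gpx8, a peroxidase of the endoplasmic reticulum (chr13:113833213-113833272), had ratios of 1.44, 0.91 and 0.85, with a mean of 1.07 ± 0.32 (2.09-fold higher; adjusted p = 0.00733). Tumour 1 was the highest in both, and both calls were lost without it, at 0.91 for Gpx2 and 0.88 for Gpx8. The call of Gpx2 was also lost without tumour 3 (1.54) and when dim probes were kept (1.39).

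The other peroxidases were not called. Gpx3, the secreted enzyme of plasma, had ratios of 1.65, 0.60 and 0.53 (mean 0.93), and Gpx7, also of the endoplasmic reticulum, had a mean of 0.69 with its green signal well above background on only 1 array. Gpx4, which reduces peroxides within membranes, had ratios of -1.13, -0.67 and -0.76, and 0.76 as its mean with the constant shift. Gpx1, the cytosolic enzyme, had ratios of -0.76, -0.33 and -0.51, and 1.16 as its mean with the constant shift and 0.32 with spike-in scaling.

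Thioredoxin reductases keep the parallel thioredoxin system reduced with NADPH. Txnrd2, the mitochondrial enzyme, had ratios of -1.39, -1.62 and -2.11, with a mean of -1.71 ± 0.36 (3.27-fold lower; adjusted p = 0.00287). The cytosolic Txnrd1 had ratios of -0.24, -0.53 and -0.47 and Txnrd3 of -0.55, -0.32 and 0.06. Neither was called, and their means turned to 0.89 and 0.69 with the constant shift, that of Txnrd1 also to 0.049 with spike-in scaling.

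Nqo1, which reduces quinones without forming radicals and is a standard Nrf2 target (chr8:109912440-109912499), had ratios of -4.87, -3.66 and -4.12. Its mean was -4.22 ± 0.61, 18.6-fold lower (adjusted p = 0.00105), and -3.05 with the constant shift. All 3 tumours were far below the pool. Its paralogue Nqo2 had ratios of 0.60, 0.43 and -0.10 and was not called (mean 0.31, adjusted p = 0.187).

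UDP-glucuronosyltransferases attach glucuronic acid to bilirubin, steroids and drugs. Of 11 genes 6 were measured and 3 called lower, and the median was -1.25. Ugt2b34 (chr5:87318849-87318908) had ratios of -3.24, -2.26 and -0.77, with a mean of -2.09 ± 1.24 (4.25-fold lower; adjusted p = 0.0274), and its call was lost without tumour 1 (-1.51), without tumour 2 (-2.00) and when dim probes were kept. Ugt2b35 had ratios of -2.32, -2.04 and -1.90 (4.24-fold lower; adjusted p = 0.000964), with the red signal well above background on 2 of 3 arrays, and its second probe gave -0.92. Ugt1a6a had ratios of -2.00, -1.63 and -1.87 (3.57-fold lower; adjusted p = 0.00108). The Ugt1a transcripts share their last exons, and the probes of Ugt1a6a ranged from -1.83 to -0.16. Ugt1a10 (mean -0.64), Ugt2a3 (-0.66) and Ugt2b38 were not called. Ugt2b38 had red signal well above background on no array, so that it has only a bound, 1.13-fold lower under the reported scaling. Tumour 1 was the lowest in all 4 Ugt2 genes, but for Ugt2b38, dim in red, it was almost level with tumour 3 (-0.205 and -0.203).

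Sulfotransferases transfer sulfate to phenols, steroids and amines. Their 7 measured members of 12 were split, with 2 called lower and a median of 0.03 over all 7. Sult1b1 (chr5:87943760-87943819) had ratios of -5.56, -3.50 and -3.13, with a mean of -4.06 ± 1.31 (16.7-fold lower; adjusted p = 0.00555). Sult1c2 (chr17:53969205-53969264) had ratios of -3.47, -3.70 and -2.77, with a mean of -3.31 ± 0.49 (9.94-fold lower; adjusted p = 0.00112). Both kept their calls with the constant shift, at -2.86 and -1.69. Sult1d1 had ratios of -2.93, -2.38 and 0.01, the widest spread of any member (2.95 log2 units), and was not called (adjusted p = 0.0745). For this gene tumour 3 was level with the pool.

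The remaining sulfotransferases had mixed signs. Sult1a1 had ratios of -0.86, 0.72 and 0.74, Sult2b1 of -0.32, 0.90 and -0.49, and Sult4a1 of 1.49, 0.19 and -0.25, and none was called. Their means of 0.20, 0.03 and 0.48 turned sign in at least 1 setting each: Sult1a1 to -0.062 without tumour 2 and -0.069 without tumour 3, Sult2b1 to -0.11 with the scanner's processed signals, and Sult4a1 to -0.11 with spike-in scaling. Sult5a1 had green signal well above background on no array and was not called. Its bound was 1.56-fold higher under the reported scaling.

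Carboxylesterases hydrolyse esters and amides of drugs and lipids. Of 7 genes 4 were measured and 2 called lower, and the median was -1.17. Ces2c (named Ces2 on the array, chr8:107378105-107378164) had ratios of -5.31, -3.15 and -3.21, with a mean of -3.89 ± 1.23 (14.8-fold lower; adjusted p = 0.00535), and its 3 probes ranged from -4.00 to -3.81. Ces2e had ratios of -0.97, -1.18 and -0.90 (2.03-fold lower; adjusted p = 0.00309), just past the 2-fold limit, and its call was lost without tumour 2 (-0.94). Ces2a had ratios of -2.43, -1.35 and -0.18 (mean -1.32, adjusted p = 0.0693) and Ces1d of -0.58, -0.51 and -0.75. For Ces2a the tumours were spread from near the pool to far below it.

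Epoxide hydrolases open reactive epoxides to diols. Of the 4 genes 2 were called lower, with a median of -0.72 that became 0.13 with the constant shift. Ephx2, the soluble enzyme that acts on epoxides of fatty acids (chr14:66703214-66703273), had ratios of -2.78, -2.90 and -2.61, with a mean of -2.76 ± 0.15 (6.77-fold lower; adjusted p = 0.000495). Ephx1, the microsomal enzyme of xenobiotic epoxides, had ratios of -1.66, -1.17 and -1.22 (2.55-fold lower; adjusted p = 0.00308), with its call lost in spike-in scaling (-0.89). The tumours lay close together for Ephx2. Ephx3 (mean -0.08) and Ephx4 (-0.03) were not called, and both turned sign with the constant shift (0.32 and 1.05), Ephx4 also with spike-in scaling (0.22) and without tumour 2 (0.15) or tumour 3 (0.052).

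Aldo-keto reductases reduce aldehydes and ketones with NADPH, and the Akr1c group acts on steroids and prostaglandins. Of 16 genes 11 were measured and 5 called lower, with a median of -0.94 that became 0.20 with the constant shift. All 4 measured Akr1c genes were among the 5. Akr1c14 (chr13:4089325-4089383) had ratios of -3.79, -3.33 and -2.33, with a mean of -3.15 ± 0.74 (8.87-fold lower; adjusted p = 0.00281). Akr1c13 had ratios of -4.14, -1.67 and -1.96 (6.04-fold lower; adjusted p = 0.0191), and its call was lost without tumour 3 (-2.91). Akr1c12 had ratios of -3.41, -1.75 and -1.87 (5.08-fold lower) and Akr1c19 of -2.62, -2.23 and -1.14 (4.0-fold lower). Tumour 1 was the lowest in all 4. The Akr1c genes are close copies on chromosome 13, and their signals may not be fully separate.

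The other aldo-keto reductases stood closer to the pool. Akr1a1, the widely expressed aldehyde reductase (named Akr1a4 on the array), had ratios of -1.33, -1.16 and -1.59 (2.56-fold lower; adjusted p = 0.00234), but 0.20 with the constant shift and -0.63 with spike-in scaling, without a call in either. The Akr1b genes, relatives of aldose reductase, were not called: Akr1b3 had a mean of -0.75, Akr1b10 of 0.02, Akr1b8 of 0.29 and Akr1b7 of 0.44. Akr1b3 was at 0.76 with the constant shift and Akr1b10 at -0.0059 with the scanner's processed signals. Akr1b7 had green signal well above background on no array. Its bound of 1.35-fold higher under the reported scaling did not hold with spike-in scaling, where its mean was -0.40. Akr7a5 (-0.94) and Akr1e1 (-0.43) were not called either and were at 0.087 and 0.58 with the constant shift.

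All 16 aldehyde dehydrogenases were measured. They oxidise aldehydes to acids, and several serve amino acid or folate metabolism rather than xenobiotics. Of the 16, 6 were called lower and 1 higher, with a median of -0.81 that became 0.020 with the constant shift. Aldh6a1, the mitochondrial enzyme of valine breakdown (chr12:85771835-85771894), had ratios of -4.89, -5.32 and -4.40, with a mean of -4.87 ± 0.46 (29.3-fold lower; adjusted p = 0.00056). Its second probe gave -2.86, also called lower. Aldh1l1, the cytosolic formyltetrahydrofolate dehydrogenase (chr6:90549091-90549150), had ratios of -4.07, -2.83 and -3.76, with a mean of -3.55 ± 0.65 (11.7-fold lower; adjusted p = 0.00158). Its mitochondrial counterpart Aldh1l2 had ratios of -1.34, -1.63 and -1.82 (3.03-fold lower; adjusted p = 0.00184), with the red signal well above background on 2 of 3 arrays. Aldh4a1, which acts in proline breakdown, had ratios of -2.23, -1.89 and -2.11 (4.22-fold lower; adjusted p = 0.000853). These 4 genes of amino acid and folate metabolism lay below the pool in every tumour, and Aldh6a1, Aldh1l1 and Aldh1l2 kept their calls with the constant shift, at -3.61, -2.27 and -1.20.

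The Aldh3 genes, which act on fatty and aromatic aldehydes, did not share a direction. Aldh3a1 (chr11:61031864-61031920) had ratios of -0.28, -2.44 and -2.52, with a mean of -1.75 ± 1.28 (3.36-fold lower; adjusted p = 0.046), and Aldh3a2 of -0.48, -1.83 and -1.22 (2.26-fold lower; adjusted p = 0.0274). In both, tumour 1 was the nearest to the pool. Both calls were lost without tumour 2 (-1.40 and -0.85), without tumour 3 (-1.36 and -1.16) and in spike-in scaling (-0.90 and -0.92), and that of Aldh3a1 also when dim probes were kept and with the median of its probes (-1.92). Aldh3b1, an enzyme of lipid-derived aldehydes (chr19:3913493-3913552), had ratios of 1.94, 1.65 and 1.46, with a mean of 1.68 ± 0.24 (3.21-fold higher; adjusted p = 0.00162). It was the largest positive difference among the members, and it kept its call in every alternative setting. Its neighbour on chromosome 19, Aldh3b2, had a mean of -0.71 and was not called.

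The remaining aldehyde dehydrogenases were under the limit. Aldh7a1 had a mean of -0.98 and Aldh9a1 of -0.90. Aldh1b1 had a mean of -0.64, Aldh5a1 of -0.63, Aldh8a1 of -0.37, Aldh16a1 of -0.33 and Aldh18a1 of -0.20. Aldh2, the main enzyme of acetaldehyde, had ratios of -0.73, 0.11 and -0.59 and a mean of -0.41 (adjusted p = 0.15). Of these 8, all but Aldh1b1 were above 0 with the constant shift, at 0.38, 0.29, 0.51, 0.11, 1.02, 0.58 and 0.80 for Aldh7a1, Aldh9a1, Aldh5a1, Aldh8a1, Aldh16a1, Aldh18a1 and Aldh2, and Aldh16a1 was also above 0 with spike-in scaling (0.18).

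**Figure D4:**
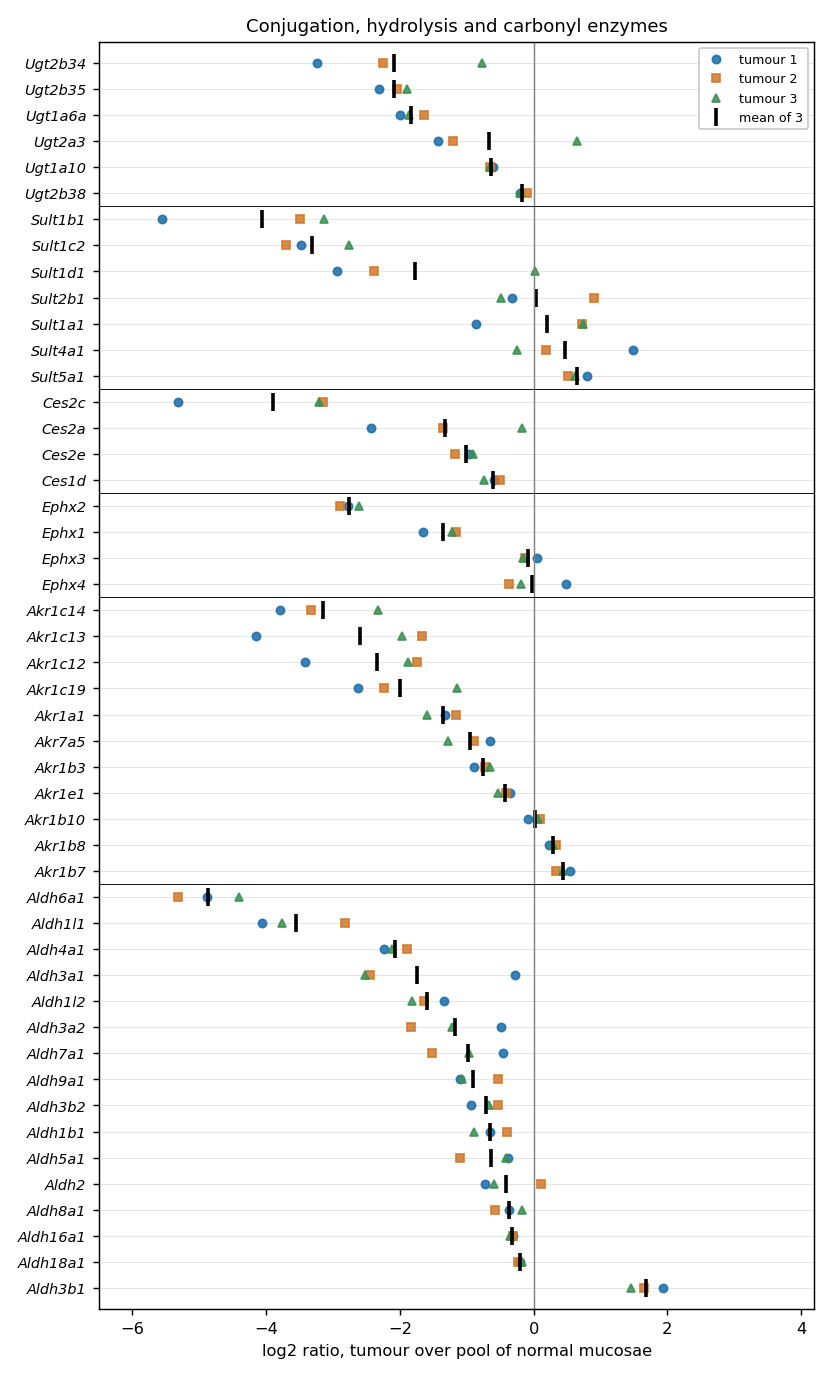
Log2 ratios of tumour over pool for each measured UDP-glucuronosyltransferase, sulfotransferase, carboxylesterase, epoxide hydrolase, aldo-keto reductase and aldehyde dehydrogenase. Coloured points are the 3 tumours, the black bar is their mean, and horizontal lines part the families. Tumour 1 is leftmost in the Akr1c and Ugt2 genes, almost level with tumour 3 for Ugt2b38, but rightmost in Aldh3a1 and Aldh3a2. Aldh3b1 is right of 0 in all tumours. Akr1a1, Akr7a5, Akr1b3, Akr1e1, Ephx3, Ephx4 and 7 Aldh genes crossed to the right of 0 with median centring. The median of all genes was 0.77 in that setting.

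The median SD of the members over the 3 tumours was 0.40 log2 units, beside 0.19 over all genes tested. The 2 sets differ in brightness, with 40 of the 84 members in the brightest of 4 equal groups of genes. The offset shrinks ratios of dim genes, and its part in the SDs was not tested. In 12 members the tumours spanned more than 2 log2 units, and in 11 the tumours had values of both signs. Among the 41 members called lower, tumour 1 was the lowest in 17, tumour 2 in 16 and tumour 3 in 8, and tumour 3 was the highest in 23. No difference between tumours was tested, since each is a single sample. Of the 24 members with several kept probes, none had probes called in opposite directions, 17 had the same call on every probe, and 6 had probes more than 1 log2 unit apart: Aldh6a1, Gstm6, Ugt1a6a, Gstm4, Sult1d1 and Ugt2b35.

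A list of 90 other genes of glutathione, thioredoxin, NADPH, cofactor supply, export and their regulators was set beside the enzymes. Of the 85 measured, 28 were called lower and 7 higher, beside the 9.68% and 9.33% of all genes, and the median was -0.55, which became 0.52 with the constant shift. Fewer genes of the list were called lower there and more higher. Which of the single genes kept their calls with the constant shift is not given here. Nfe2l2, the transcription factor Nrf2, had ratios of -2.05, -1.58 and -1.59 (3.34-fold lower; adjusted p = 0.0017). Keap1, which targets Nrf2 for degradation, had ratios of -0.18, -0.24 and -0.31 and was not called, and it was at 0.94 with the constant shift and 0.10 with spike-in scaling. Ahr, the aryl hydrocarbon receptor, had ratios of 1.04, 1.44 and 1.22 (2.35-fold higher; adjusted p = 0.00264), although the median of its probes, 0.73, was not called.

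Among the enzymes of that list, the carbonyl reductases Cbr3 (-3.33, -3.27 and -3.48) and Cbr1 (-3.34, -3.23 and -3.39) were 10.3-fold and 9.98-fold lower, with little spread between tumours. Papss2, which makes the sulfate donor of the sulfotransferases, had ratios of -3.70, -2.40 and -2.35 (7.04-fold lower; adjusted p = 0.00387). Msra, which repairs oxidised methionine, was 4.81-fold lower and Sod2, the mitochondrial superoxide dismutase, 4.80-fold lower. The secreted superoxide dismutase Sod3 had ratios of 3.24, 2.57 and 2.14 (6.28-fold higher; adjusted p = 0.00226). Hmox1, the haem oxygenase that is another known Nrf2 target, had ratios of 2.65, 1.02 and 1.71 (3.47-fold higher; adjusted p = 0.0144), opposite in sign to Nqo1 in all 3 tumours, and its call was lost without tumour 3. Gusb, the lysosomal glucuronidase, was 3.11-fold higher, the exporter Abcc4 2.90-fold higher and the transferase Ggt6 2.48-fold higher, the last with its call lost without tumour 3. Gsr, which regenerates reduced glutathione, had ratios of -0.15, 0.76 and -0.09. Slc7a11, a subunit of the cystine importer that supplies glutathione synthesis, had ratios of -0.06, -0.15 and 0.46 with no green signal well above background. Neither was called, and Gsr turned to -0.12 without tumour 2 while Slc7a11 turned to -0.10 without tumour 3 and -0.76 with spike-in scaling.

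**Figure D5:**
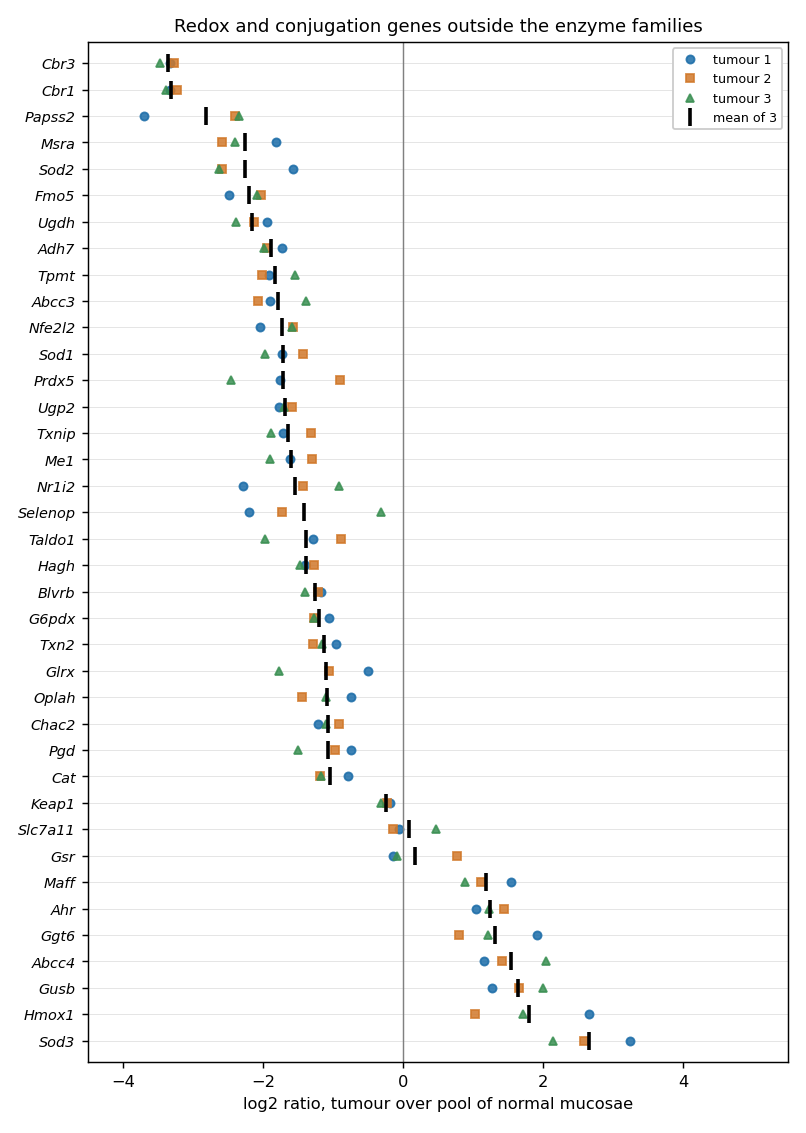
Log2 ratios of tumour over pool for the called genes of the list of 90 other redox and conjugation genes, with Keap1, Slc7a11 and Gsr, which were not called. Coloured points are the 3 tumours and the black bar is their mean. Cbr3, Cbr1 and Nfe2l2 lie left of 0 and Sod3, Hmox1 and Ahr right of 0 in all tumours, while Keap1 crossed to the right of 0 with median and spike-in centring.

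The tissues compared also differed in their cell type markers. Cdh1 had ratios of -4.62, -3.27 and -4.83 (adjusted p = 0.00186) and Atp4b a mean of -6.83 (adjusted p = 0.000235), while Trp53 had a mean of -0.21 and was not called (adjusted p = 0.161). The probes' place relative to the deleted exons was not determined here. All 6 measured parietal, all 4 chief and all 6 mucous cell markers were called lower, and the summed parietal signal, on the log2 scale, was 11.96 to 12.22 in the tumours and 19.06 to 19.15 in the pool. Cblif is in both the parietal and the chief list and enters both sums, so the 2 lists are not separate. The chief cell sum was 14.10 to 14.29 against 19.79 to 20.02 and the mucous sum 16.36 to 16.47 against 20.10 to 20.49. Of 4 epithelial keratin and adhesion markers, Krt8 and Krt19 were called lower and Epcam higher. Among stromal and immune lists, 5 of 6 fibroblast, 5 of 6 macrophage, 4 of 4 neutrophil, 3 of 4 endothelial and 2 of 4 smooth muscle markers were called higher, and no marker of these lists was called lower. The summed signals were 15.43 to 17.14 in the tumours against 13.84 to 14.04 in the pool for fibroblasts, 14.23 to 14.47 against 11.74 to 11.77 for macrophages, 14.72 to 17.58 against 9.40 to 10.09 for neutrophils, 11.13 to 12.40 against 9.41 to 9.51 for endothelium and 12.29 to 15.08 against 12.22 to 12.25 for smooth muscle. Of the markers of other organs, 2 of 4 hepatocyte, 2 of 3 enterocyte and 4 of 5 pancreatic acinar genes were called lower. There, 1 hepatocyte, 1 enterocyte and 3 of 4 squamous genes were called higher. For acinar markers the summed signal was 12.55 to 12.76 in the tumours against 19.38 to 19.61 in the pool. For hepatocyte markers it was 9.34 to 11.19 against 14.22 to 14.33. For enterocyte markers it was 10.99 to 12.84 against 11.85 to 11.96, and for squamous markers 11.17 to 12.14 against 8.99 to 9.44. Slc26a7 and Pnlip were not well above background in any tumour, and Camp and Cd68 were not in the pool on any array. The part of these differences in the values of the enzymes was not tested.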

How the data were processed

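The 3 2-colour Agilent arrays on 1 slide each held 1 tumour (Cy5, red) and the pool (Cy3, green), labelled from 250 ng of RNA whose integrity number was above 7, per the labels. The deposited scanner files hold intensity values (mean signal and median background of each spot) and a log10 ratio of the processed red and green signals, per the file headers. The file headers name Feature Extraction 10.7.3.1, while the submitters' processing notes name version 9.5.3. The authors' deposited table holds log2 ratios, which lay within 0.01 of the scanner ratio at 99.8 to 99.9% of filled probes. Their medians were -0.15, -0.13 and -0.11, and 48.3 to 49.6% of probes were blank.

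Signals were corrected with normexp (offset 50, all spots) and loess within each array, control spots weighted 0, with limma 3.58.1 in R 4.3.3. Control and outlier-marked spots (157, 167 and 190) were left out, no gene spot was saturated, and replicate spots were averaged. A probe was kept if every array had it well above background in red, or every array in green (24164 of 39429), and the brightest kept probe stood for a gene. The share of gene spots well above background was 64.0 to 66.8% in red and 52.5 to 54.2% in green. Precision is limited by the number of arrays. A two-sided limma test (lmFit, eBayes) compared ratios with 0, and p-values were adjusted over 19434 genes by Benjamini-Hochberg. The labels call the tumours biological replicates. The offset shrinks ratios of dim genes. A gene with 1 channel not well above background on every array has a bound, from per-channel signals after loess and Aquantile, open to dye bias. The floor was the lowest signal well above background. Where the dim signal lay above that floor, the bound is the measured ratio. Bounds hold under the reported scaling only.

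Genes were named through accessions in a RefSeq table of GRCm38 (26049 probes, 134 of the 137 member probes), otherwise by the array's name (13380 probes). Of the member genes, 8 changed name. Probe coordinates are mm9, per the file headers, and exon annotation of mm9 was not used here.

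The members, the list of 90 genes, the marker lists and the tests were chosen with earlier results of these data known. The rule for named genes took, in each family, up to 5 called members with the largest log2 ratio in size, the brightest member and any called against the family's majority, with the 4 largest bounds each way. From the list of 90 it took up to 5 called genes each way, with Nfe2l2, Keap1, Ahr, Gsr, Slc7a11 and Hmox1, and it took Cdh1, Trp53 and Atp4b as checks. The other measured members are given so that each family is complete. Marker lists covered parietal, chief, mucous, epithelial, fibroblast, macrophage, neutrophil, endothelial, smooth muscle, hepatocyte, enterocyte, pancreatic acinar and squamous cells. The fit was tested on simulated data. Alternatives were the scanner's processed signals, the authors' values, offset 0, median, spike-in or tested-gene centring, other probe filters and summaries, and leaving out each tumour.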

Additional observations from a re-analysis of the deposited data

How the results depend on the processing

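No paired analysis was possible because every array holds the same pool and there is 1 group of tumours, and the slide could not be a block because there is only 1. With median centring in place of loess, 14 members were called higher and 16 lower (median -0.14), and 20 and 6 genes of the list of 90 (median 0.52). The members called higher were 16.7% of those measured, beside 39.9% of all genes tested. Family medians there were -1.58 for alpha, -0.46 for mu and 0.035 for other glutathione S-transferases, 1.60 for peroxidases, -0.49 for UDP-glucuronosyltransferases, 0.73 for sulfotransferases, -0.38 for carboxylesterases, 0.13 for epoxide hydrolases, 0.20 for aldo-keto reductases and 0.020 for aldehyde dehydrogenases. Members that turned above 0 there were Gclc (0.20), Gclm (0.025), Gsta3 (0.020), Gstp2 (0.14), Gstp1 (0.035), Gstt2 (0.038), Gstz1 (0.19), Gsto2 (0.097), Gpx4 (0.76), Gpx1 (1.16), Txnrd1 (0.89), Txnrd3 (0.69), Ephx3 (0.32), Ephx4 (1.05), Akr1a1 (0.20), Akr7a5 (0.087), Akr1b3 (0.76), Akr1e1 (0.58), Aldh7a1 (0.38), Aldh9a1 (0.29), Aldh5a1 (0.51), Aldh2 (0.80), Aldh8a1 (0.11), Aldh16a1 (1.02) and Aldh18a1 (0.58), with Keap1 (0.94). With median centring the median of all genes was 0.77, so a gene above 0 there can still lie below it. With spike-in centring, also a single constant per array, the median of all genes was -0.07, relative to spike-in spots whose expected ratios were not known. The cause of the shift of all genes was not tested.

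With spike-in centring, 17 genes of the list of 90 were called lower (median -0.31). Of all genes tested, 13.5% were called lower and 14.7% higher in that setting. The medians of other glutathione S-transferases and aldo-keto reductases were -0.80 and -0.63. Gpx1 (0.32), Txnrd1 (0.049), Sult4a1 (-0.11), Ephx4 (0.22), Akr1b7 (-0.40), Aldh16a1 (0.18), Keap1 (0.10) and Slc7a11 (-0.76) changed sign, and the cause was not tested. With the scanner's processed signals, 7 members were called higher, beside 19.2% of all genes tested. Medians there were -1.60 for members, -0.71 for the list of 90, -2.25 for UDP-glucuronosyltransferases, -1.94 for carboxylesterases, and -1.24 for aldo-keto reductases and for aldehyde dehydrogenases. With the authors' values they were -1.58 for members, -0.73 for the list of 90, -2.06 for sulfotransferases, -1.94 for carboxylesterases and -1.33 for aldo-keto reductases. Sult2b1 was -0.11 and Akr1b10 -0.0059 in both of these, and they were -0.011 and -0.016 with centring on the tested genes. Offset 0 called 7 members and 11 genes of the list of 90 higher, beside 16.4% of all genes tested. Medians there were -1.12 for aldo-keto reductases and -1.08 for aldehyde dehydrogenases. Keeping dim probes gave medians of -0.73 for members, 0.32 for peroxidases, -0.32 for UDP-glucuronosyltransferases and aldo-keto reductases, and -0.61 for carboxylesterases, as more dim members enter. Requiring both channels gave -1.83 for UDP-glucuronosyltransferases, -1.77 for sulfotransferases and -1.15 for aldo-keto reductases. Each probe on its own gave -1.74 for alpha and -1.36 for other glutathione S-transferases, -2.56 for carboxylesterases, -0.66 for epoxide hydrolases and -0.75 for aldo-keto reductases, and the median of a gene's probes -0.54 for epoxide hydrolases.

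Leaving out 1 tumour gave 33 to 42 members called lower and 1 (without tumour 1) to 4 called higher, 2 without tumour 3, a members' median of -1.29 to -1.05 and an aldo-keto reductase median of -1.09 to -0.80. Of all genes tested, 9.14 to 9.88% were called lower and 8.54 to 8.68% higher in these fits. Genes with a changed sign ranged from -0.029 (without tumour 1) to 0.84 for Sult4a1, from -0.40 (without tumour 2) to 0.29 for Sult2b1, from -0.069 (without tumour 3, and -0.062 without tumour 2) to 0.73 for Sult1a1, from -0.28 to 0.15 (without tumour 2, and 0.052 without tumour 3) for Ephx4, from -0.011 (without tumour 2) to 0.082 for Akr1b10, from -0.12 (without tumour 2) to 0.33 for Gsr and from -0.10 (without tumour 3) to 0.20 for Slc7a11. Of the 41 members called lower, 37, 32 and 37 kept the call without tumour 1, 2 and 3, and none was called the opposite way in any setting. Signal over background limits the 21 unmeasured genes and the 9 measured members below it in 1 channel on some array.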
